A study of Mus musculus with 12 samples.

Results

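The genes described here are the mouse zinc finger protein genes known by a number, from Zfp3 to Zfp995. They are the rows of the deposited expression table whose symbol is Zfp followed by digits alone and whose mean normalized count was at least 100, without Zfp36, a gene of mRNA decay with another kind of zinc finger. The rule gave 213 genes of 27013 in the table, and 9692 genes of any kind had a mean count of at least 100. A further 144 numbered Zfp genes lay below that level, of which 46 were tested. The mean normalized count chose the members and comes from the same comparison as the fold changes, so both are given as a description.

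All cells were M1-type macrophages grown from bone marrow of C57BL/6 mice, kept 7 days in M-CSF (20 ng/ml), a macrophage growth factor. LPS at 100 ng/ml and IFN-γ at 20 ng/ml were then added for 24 hours, stimuli that drive the inflammatory M1 state. The groups used were m6A input RNA of Ythdf2 conditional knockout (cKO) cells, m6A input RNA of wild-type (WT) cells, m6A-immunoprecipitated RNA of WT cells, and YTHDF2-immunoprecipitated RNA of WT cells with its own input, each with 2 libraries. The labels do not give the Cre driver of the knockout, and do not say whether the 2 libraries of a group came from separate mice. The files used hold no value per library, so each gene has 1 mean, 1 fold change and 1 standard error from the authors' deposited table, and library depth is unknown. In bulk RNA, fewer cells of a type and less RNA per cell cannot be told apart.

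Which genotype is on top of the fold change is nowhere stated in the table. Ythdf2 itself, the targeted gene, had a positive log2 fold change of 1.10 ± 0.16 (SE), so a positive value means the same direction as Ythdf2 and a negative value the other. All 17843 peaks in the list deposited for the YTHDF2 immunoprecipitation carry names that begin with m6a_peak. The list is called the YTHDF2 list below after its deposited name, and which libraries its peaks came from was not tested. All 8 macrophage markers (Adgre1, Csf1r, Cd68, Itgam, Lyz2, Fcgr1, Mertk and Cd14) had mean counts of 2991 or more, up to 204979. Of these, Cd68 was called positive (0.40) and Lyz2 (−1.49) and Itgam (−0.55) negative between the genotypes. Cd68 did not pass after centring (adjusted p 0.0574) or with p-values adjusted over every gene (0.0546), and Adgre1 (−0.38) passed after centring alone (0.0247). Of 7 M1 activation genes 6 were tested and Cxcl9 (0.62) and Cxcl10 (0.55) were positive, and of 7 neutrophil genes 4 were tested and Mmp8 (−0.83) was negative. The part of these markers in the members' values was not tested. Of 4 dendritic cell markers none was tested, and their mean counts reached 30.1 at most.

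Zinc finger proteins of the C2H2 kind hold short folds, each built round a zinc ion, that stand in a row and read DNA bases. In many mouse Zfp genes the whole row is encoded in 1 long exon at the end of the gene. A large share of them also carry a KRAB domain, which calls in the co-repressor Trim28 and the histone methyltransferase Setdb1 and so silences retroelements and imprinted loci. They have multiplied by local duplication, so that many lie side by side with close copies. N6-methyladenosine (m6A) on mRNA is known to be placed mostly in long exons and near stop codons, and YTHDF2 binds it and speeds decay of the RNA.

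The numbered Zfp genes were transcripts of modest level. Their mean normalized counts ranged from 103 to 4614 with a median of 340, against a median of 887 over all genes with a mean count of at least 100. Together they made up 0.377% of the summed mean counts, and the 5 most abundant held 15.0% of the members' sum. These were Zfp106 at 4614, an RNA-binding protein needed by motor neurons in mice, Zfp207 at 3691, a spindle assembly factor, Zfp445 at 3690, a keeper of genomic imprints, Zfp710 at 2801 and Zfp263 at 2712. The counts are not divided by transcript length, so they do not rank the genes by number of molecules. At the threshold, Zfp951 and Zfp558 lay just inside at 103.0 and 103.3, and Zfp229 and Zfp867 just outside at 98.1 and 97.6.

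Promoter sequences, from 250 bases before to 50 after a start site, were found for 177 members in RefSeq (GRCm38.p6). The window is set on 1 listed transcript start, which lay within 1000 bp of the outer start of the gene for 154 of them and deeper in the gene for 23, Zfp445 among these. They held a median of 15 CpG pairs (quartiles 9 and 21) and 55.3% G and C, against a median of 22 CpG pairs (quartiles 14 and 29) and 61.0% over 7630 promoters of genes with a mean count of at least 100. Over all 27025 promoters of this length the medians were 7 pairs and 52.7%. The GC box GGGCGG, on either strand, was in 50.3% of the members' promoters, against 66.2% of those of genes of at least 100 and 35.9% of all. The letters CCGGAAG, a core bound by ETS factors, were in 24.3%, 21.0% and 9.12% of the same 3 sets, and TATAAA in 5.65%, 6.54% and 14.2%. Of the 4 most abundant members, the 3 with the window at the outer start of the gene are shown to let the CpG pairs be seen in place. CpG pairs are in capitals, and GGGCGG can contain one. All 3 are written along the strand of the gene.
Zfp106 (chr2:120563810-120564109, minus strand, 14 CpG pairs): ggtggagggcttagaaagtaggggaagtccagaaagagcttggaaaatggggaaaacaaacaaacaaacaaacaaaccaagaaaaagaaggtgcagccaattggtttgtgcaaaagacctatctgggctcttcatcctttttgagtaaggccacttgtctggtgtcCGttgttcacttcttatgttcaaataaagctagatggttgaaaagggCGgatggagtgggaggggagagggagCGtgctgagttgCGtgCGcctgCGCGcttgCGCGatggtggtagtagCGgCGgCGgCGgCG
Zfp207 (chr11:80383029-80383328, plus strand, 17 CpG pairs): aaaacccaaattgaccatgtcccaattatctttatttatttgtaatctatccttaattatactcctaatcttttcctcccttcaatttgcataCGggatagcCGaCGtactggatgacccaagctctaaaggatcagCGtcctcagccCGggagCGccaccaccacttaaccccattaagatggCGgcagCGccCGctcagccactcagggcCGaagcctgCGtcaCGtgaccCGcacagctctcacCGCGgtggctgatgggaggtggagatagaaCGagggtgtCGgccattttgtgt
Zfp710 (chr7:80024564-80024863, plus strand, 4 CpG pairs): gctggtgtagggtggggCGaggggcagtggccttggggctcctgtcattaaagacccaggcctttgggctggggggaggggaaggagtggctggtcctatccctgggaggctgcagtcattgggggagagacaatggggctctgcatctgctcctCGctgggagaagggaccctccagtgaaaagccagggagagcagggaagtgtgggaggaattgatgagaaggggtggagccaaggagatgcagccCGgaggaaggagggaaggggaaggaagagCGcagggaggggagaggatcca
In Zfp106 the pairs gather in the last part of the window, downstream of a stretch with none. Zfp106 holds the GC box, and Zfp207 and Zfp710 do not.

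Between the genotypes, most numbered Zfp genes had log2 fold changes near 0 in input RNA. Of the 213 members, all tested, 2 had an adjusted p under 0.05 in the authors' Wald test, Zfp992 and Zfp469, while 2.32% of all 10778 tested genes and 2.55% of genes with a mean count of at least 100 were called. Both were positive, and no member was called negative, with 1.76% of all tested genes called positive and 0.557% negative. At an unadjusted p under 0.05 there were 4 members, while 9.99% of all tested genes passed. All 4 were positive (6.28% of all tested genes) and none negative (3.71% of all tested genes). Since the rule used this comparison, nothing is read from these counts. The other 2 of these 4 were Zfp275 at a log2 fold change of 0.37 (adjusted p 0.347) and Zfp775 at 0.63 (adjusted p 0.453). The members' log2 fold changes lay within 0.25 of 0 in 86.4% of cases, against 78.8% of all genes with a mean count of at least 100. Their median was 0.03 and 128 of 213 were above 0, against −0.00 and 49.2% of all genes of at least 100. After subtracting the median of the most abundant 25% of tested genes (0.04) from each value, the members' median was −0.01 and 105 (49.3%) were above 0, against −0.04 and 40.1%. The sign of the members' median thus turned, while it stayed above that of all genes.

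**Figure D1:**
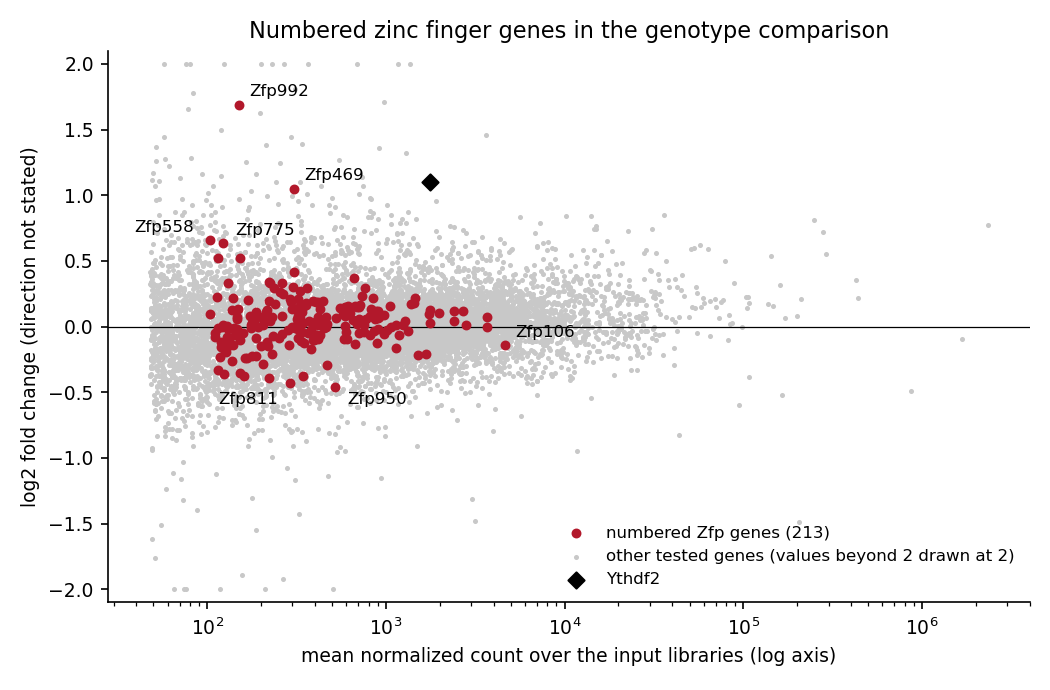
Log2 fold change between the genotypes (vertical axis, direction not stated) against mean normalized count (horizontal log axis) for 213 numbered Zfp genes (red), Ythdf2 (black diamond) and the other tested genes (grey). Most red points lie within 0.25 of 0, and Zfp992 at 1.69 and Zfp469 at 1.05 stand above the rest.

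Zfp992 (mm10, as for all positions here, chromosome 4, 146449030 to 146469440) had the highest value, at 1.69 ± 0.30 (log2, SE) in the authors' deposited table, where its mean count was 151 and its adjusted p 1.14e-05. It remained called when p-values were adjusted over every gene and when fold changes were centred (adjusted p 2.85e-05 and 2.64e-05). Its transcript carried 1 m6A peak, at 146467593 to 146467692, which ends 1748 bp before the RefSeq end of the gene. The YTHDF2 list holds no peak for it. Within 1 Mb, 3 other genes were tested, and none was called. Gm13212, Gm21411 and Zfp991 lay at 0.27 ± 0.20, 0.28 ± 0.35 and 0.18 ± 0.44 (SE). The mouse genome holds close copies of Zfp genes in such stretches, and the sources used here do not say how reads shared by copies were counted.

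Zfp469 (chromosome 8, 122043123 to 122272650), whose human counterpart is mutated in brittle cornea syndrome, was at 1.05 ± 0.25 (SE) in the authors' deposited table, where its mean count was 305 and its adjusted p 0.00244. It too remained called under both alternatives (adjusted p 0.00599 and 0.00478). Within 1 Mb, 29 other genes were tested and none was called, with log2 fold changes from −0.63 to 0.35 and a median of −0.02. Zfp469 had no m6A peak. The YTHDF2 list gives it 4 peaks under its older name Gm22, all of them listed under the overlapping gene Gm20388 as well. Their fold enrichments, the caller's own value per peak as deposited, were 3.51, 4.12, 3.11 and 4.98. The second has its summit in a coding exon part of 1795 bp, at 122270331, and the last 2 have theirs in the 3′ UTR. Fibroblast markers were measured beside it. Of 5 markers (summed mean count 1487) 4 were tested, and Col1a1 passed at 0.56 ± 0.17 (adjusted p 0.0491), in the direction of Zfp469, but not after centring (0.0884) or when p-values were adjusted over every gene (0.121). Col1a2, Dcn and Col3a1 lay at 0.46, 0.36 and −0.20 without passing, Pdgfra had a mean count of 7.79, and the part of such cells in the Zfp469 value was not tested.

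The next highest values did not pass. They were Zfp558 at 0.66 ± 0.37, Zfp775 at 0.63 ± 0.31 and Zfp72 at 0.53 ± 0.28 (SE), with mean counts of 103, 123 and 153. The lowest values were Zfp950 at −0.46 ± 0.55, Zfp811 at −0.43 ± 0.66, Zfp511 at −0.39 ± 0.24, Zfp395 at −0.38 ± 0.22 and Zfp141 at −0.37 ± 0.28. Zfp950 and Zfp811 had wide standard errors for their level, with mean counts of 517 and 289. Among 2494 genes with mean counts of 200 to 600 the median standard error was 0.207, and 1.36% exceeded 0.5. These 2 were the members in that range to exceed it, of 99. The standard errors of all members ran from 0.115 to 0.656 with a median of 0.207.

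Members grouped by known roles (23 genes, placed in the groups after their values were seen) held no call, while 2.32% of all tested genes were called. An m6A peak was found in 3 of 6 that act on RNA or ribosomes, 4 of 4 silencers of retroelements or imprinted loci, 7 of 7 partners of co-repressors or chromatin factors and 3 of 6 promoter-binding factors, and a YTHDF2 peak in 6, 4, 6 and 6 of them. The groups' median mean counts were 791, 1030, 718 and 1171. At mean counts from 500 to 1000, 50.3% of all genes carried m6A and 73.0% a YTHDF2 peak, and from 1000 upward 64.9% and 85.8%. In groups this small no count is read as apart from that background. Of the 6 that act on RNA or ribosomes, Zfp106 was at −0.14 ± 0.12, the 60S ribosome assembly factor Zfp622 at 0.16 ± 0.15, and Zfp598, the ubiquitin ligase that senses collided ribosomes, at −0.01 ± 0.15 (SE). Zfp326, which links transcription to splicing, was at −0.06 ± 0.19. Of the silencers, Zfp445 was at −0.00 ± 0.12, Zfp809, which silences murine leukaemia virus, at −0.03 ± 0.22, Zfp568, a repressor of a placental Igf2 transcript, at −0.01 ± 0.21 and Zfp638, which silences unintegrated retroviral DNA, at 0.10 ± 0.13. Of the co-repressor and chromatin partners, Zfp217 was at −0.21 ± 0.13, Zfp687 at 0.15 ± 0.16, and the SUMO ligase Zfp451 at 0.16 ± 0.17. All 6 promoter-binding factors lay between 0.06 and 0.18, also above 0 after centring, and none passed. Among them were Zfp281 at 0.10 ± 0.14, Zfp148 at 0.18 ± 0.13, Zfp143, a factor of snRNA and mRNA promoters, at 0.12 ± 0.16, and Zfp410, an activator of Chd4, at 0.06 ± 0.16. Above 0 after centring were 2 of 6 genes that act on RNA or ribosomes, 1 of 4 silencers and 4 of 7 co-repressor or chromatin partners. Over all genes of at least 100 that share was 40.1%. The groups were made with the values in view, so nothing is read from these counts.

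In a list of 27 co-repressors and chromatin factors that KRAB proteins work with, all 27 genes were tested. Of these, 1 passed on the positive side and none on the negative, against 1.76% and 0.557% of all tested genes. The list's median was −0.08 and 6 were above 0, against −0.00 and 49.2% of all genes of at least 100. The one that passed was the DNA methyltransferase Dnmt3a at 0.59 ± 0.15 (SE, adjusted p 0.00488 in the authors' deposited table). Trim28 and Setdb1 were both at −0.15, with standard errors of 0.13 and 0.14. In a list of 43 C2H2 factors with names of their own, 35 were tested and 1 passed, against 2.32% of all tested genes. It was Klf4, a regulator of macrophage polarization, at 0.59 ± 0.17 (adjusted p 0.0299), and it did not pass after centring (adjusted p 0.0574) or when p-values were adjusted over every gene (0.0738). That list had a median of 0.09 and 23 members above 0.

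An m6A peak was found in 130 of 213 numbered Zfp genes, or 61.0%, against 49.6% of all genes with a mean count of at least 100. Each list of peaks is a single one for WT cells, so these shares have no replicate check. The share was higher at higher expression in both sets. In members with mean counts of 100 to 200 it was 37.0% of 54, against 14.4% of 1203 genes of that level. From 200 to 500 it was 57.1% of 91 members, against 35.7% of 2026 genes. From 500 to 1000 it was 83.7% of 43 members, against 50.3% of 1967 genes, and from 1000 upward 88.0% of 25 members, against 64.9% of 4496 genes. The members' share was thus the higher one in all 4 ranges.

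A YTHDF2 peak was found in 115 members, or 54.0%, against 69.8% of all genes with a mean count of at least 100. Within ranges of expression the order changed. It was 33.3% of members against 32.2% of genes from 100 to 200, 44.0% against 53.4% from 200 to 500, 83.7% against 73.0% from 500 to 1000, and 84.0% against 85.8% from 1000 upward. When peaks with a fold enrichment of at least 3 alone were counted, the overall shares were 44.1% of members and 44.3% of all genes of at least 100. Of the 115 members, 4 were found through older names: Zfp24, Zfp469, Zfp638 and Zfp950. Some peaks inside members are listed under other genes alone and were not counted for them: 6 inside Zfp469 under Gm20388, 1 inside Zfp687 under Pi4kb and 1 inside Zfp87 under Zfp58.

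**Figure D2:**
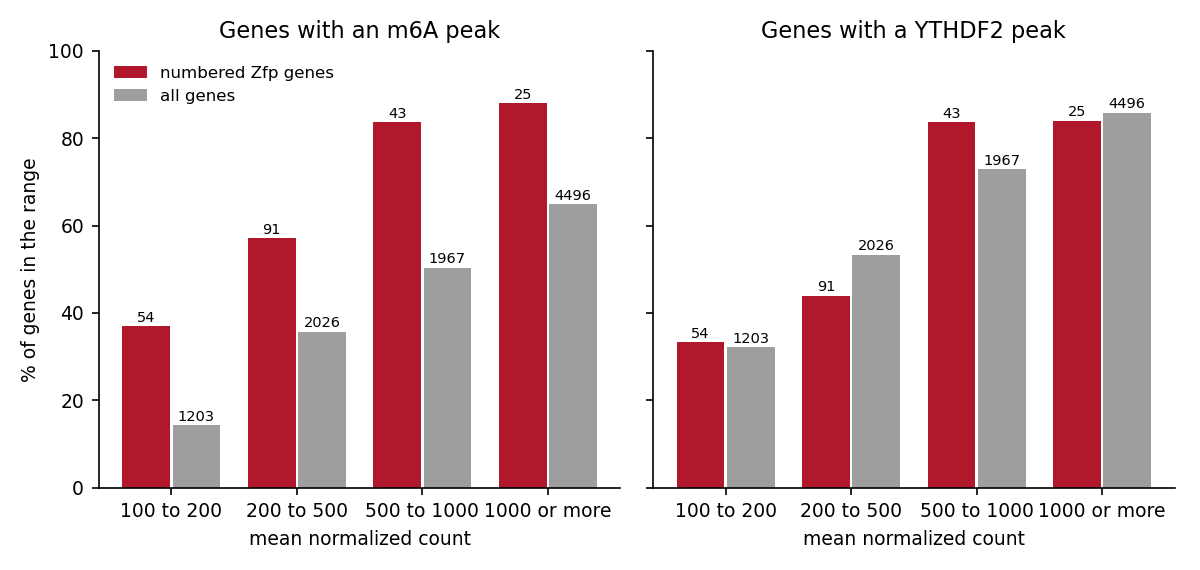
Share of genes with an m6A peak (left) and with a YTHDF2 peak (right) in 4 ranges of mean normalized count, for numbered Zfp genes (red) and all genes (grey), with the number of genes above each bar. The red bar is the higher one in all 4 ranges for m6A, and the order differs between ranges for YTHDF2.

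Both kinds of peak were found in 77 members (36.2%, against 39.6% of all genes of at least 100) and neither in 45 (21.1%, against 20.3%). An m6A peak without a YTHDF2 peak was found in 53 members, or 24.9%, against 9.95% of all genes of at least 100. The reverse, a YTHDF2 peak without an m6A peak, was found in 38 members, or 17.8%, against 30.1%. Of members with m6A, 59.2% had a YTHDF2 peak, against 79.9% of all genes of at least 100 with m6A. Within ranges of expression the order of this share changed. It was 30% against 37.0% from 100 to 200, and 38.5% against 55.1% from 200 to 500. It was 88.9% against 77.7% from 500 to 1000, and 86.4% against 89.4% from 1000 upward. The share of members with an m6A peak alone was lower from 500 to 1000, at 9.30% against 11.2%. In the other ranges that share was higher in members than in all genes. Members with m6A carried 2.18 peaks on average and 60.8% of them had at least 2, against 1.91 peaks and 48.6% of all genes of at least 100. The most abundant members with no peak of either kind were Zfp706, Zfp68, Zfp644, Zfp277 and Zfp637, with mean counts of 1142, 735, 632, 579 and 415. The median log2 fold change was 0.02 in members with both marks, 0.05 with m6A alone, 0.02 with a YTHDF2 peak alone and 0.01 with neither. Over all genes of at least 100 the same 4 medians were 0.03, 0.01, −0.03 and −0.07.

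**Figure D3:**
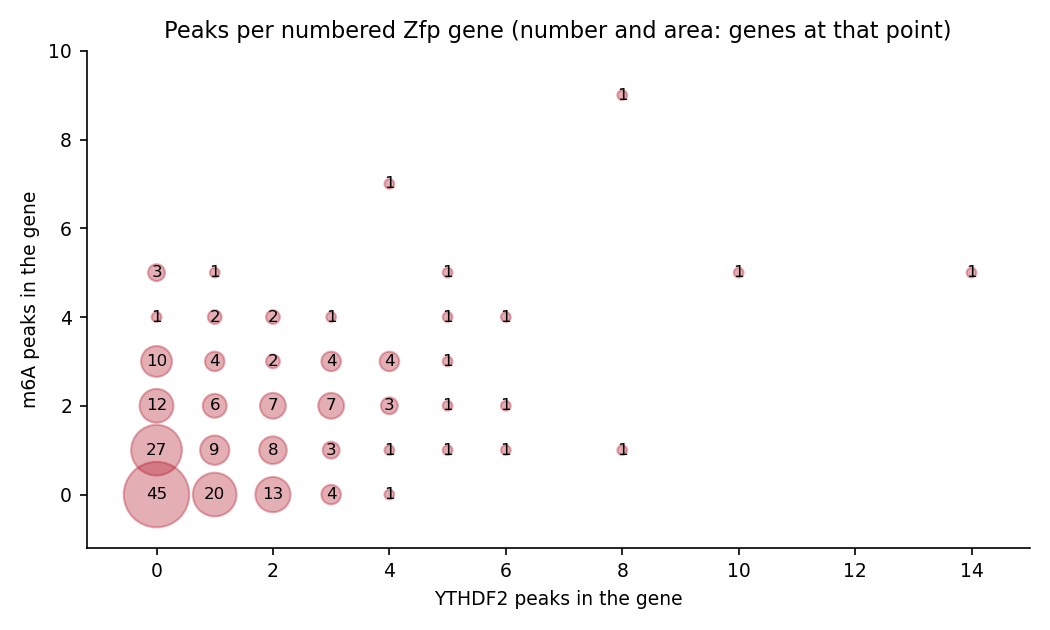
Number of m6A peaks (vertical axis) against number of YTHDF2 peaks (horizontal axis) in each numbered Zfp gene, with the number and area of each point giving how many genes lie there. The largest point is the 45 genes with no peak, 27 genes have 1 m6A peak and no YTHDF2 peak, and Zfp292 has 9 and 8.

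In the members, coding YTHDF2 summits lay mostly in long exons. Of 282 summits that fell in a feature of the listed transcript, 122 (43.3%) lay in coding sequence, 109 (38.7%) in a 3′ UTR, 47 (16.7%) in an intron and 4 (1.42%) in a 5′ UTR. Over all genes with a mean count of at least 100 these shares were 35.4%, 38.9%, 23.7% and 2.06%. The coding part of the exon under a coding summit had a median of 1354 bp in members (quartiles 674 and 2101), against 254 bp (163 and 648) over all genes of at least 100. It exceeded 1000 bp for 77 of the 122, or 63.1%, against 17.1%. Coding exon lengths without regard to peaks were not compared. These values thus do not separate where summits lie from how long the members' coding exons are. A single gene can give several summits, and Zfp292 gives 6. Without the members Zfp652 and Zfp420, which hold many of the intronic summits, the coding share was 46.5% and the intron share 11.5%. The members' peaks had a median fold enrichment of 3.25, against 2.99 over all genes of at least 100, and 20 of 286 (6.99%) reached 5, against 7.02%.

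**Figure D4:**
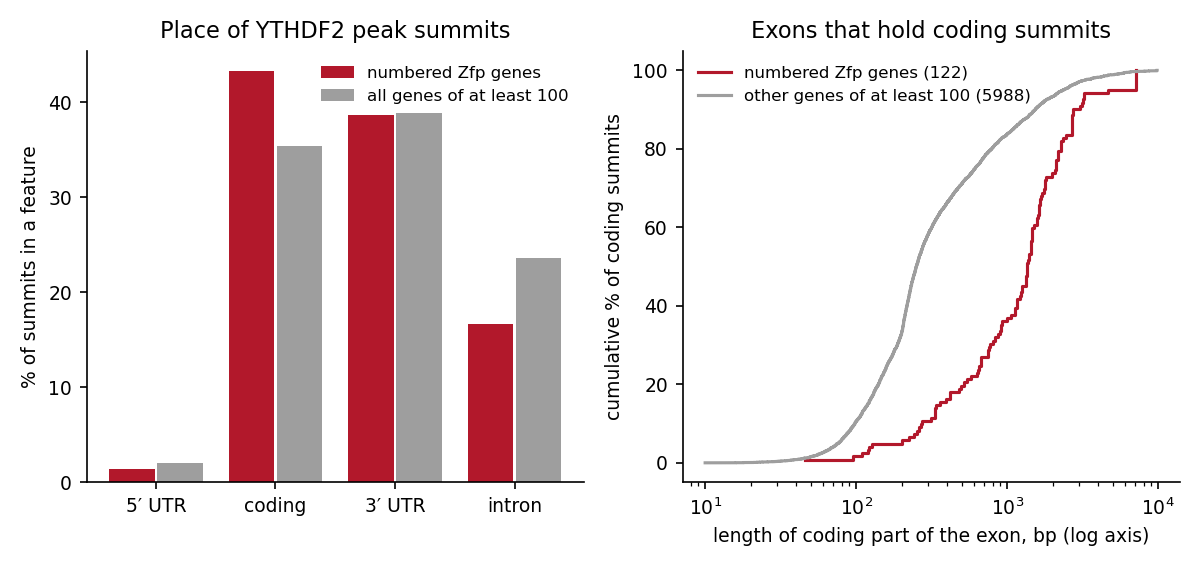
Left, share of YTHDF2 summits in each transcript feature for numbered Zfp genes (red) and all genes with a mean count of at least 100 (grey). Right, cumulative share of coding summits by the coding length of their exon (log axis), where the red curve of 122 summits lies to the right of the grey curve of the other genes, with medians of 1354 bp in members and 254 bp over all genes of at least 100.

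The m6A peaks of members covered a median of 225 bp of the genome, against 325 bp over all genes of at least 100, and 6.71% spanned more than 1000 bp, against 23.2%. Of 279 member m6A peaks placed at their gene, 97 (34.8%) shared 1 bp or more with a YTHDF2 peak, against 49.2% of 9003. Among genes that had a YTHDF2 peak at all, these shares were 53.6% of 181 in members and 58.0% of 7511 over all genes of at least 100. Of the 77 members with both kinds of peak, 53 (68.8%) had at least 1 overlap, against 74.8% of 3840 genes. For peaks spanning at most 1000 bp, the median distance from the peak to the 3′ end of the RefSeq gene was 3065 bp in members (quartiles 1739 and 7925), against 2622 bp (852 and 9835). A distance of at most 2000 bp was found for 32.3% of these peaks in members, against 43.0%. These distances are along the genome and include introns. The spans over which overlap was counted are also along the genome and can hold introns. A wider span can meet a YTHDF2 peak more readily, and its part in the overlap shares was not tested.

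Single genes show the layout. Zfp292 (chromosome 4) had the most m6A peaks, 9, and 8 YTHDF2 peaks, of which 6 had their summits in a coding exon part of 7082 bp and 2 in the 3′ UTR. Its m6A peaks ran from 34804763 to 34811837 and 7 of the 9 overlapped a YTHDF2 peak, yet the YTHDF2 peak with the highest fold enrichment, 4.14, lay outside them at 34803251 to 34803768, in the 3′ UTR. Its input RNA was at 0.05 ± 0.12 (SE). Zfp217, a partner of co-repressor complexes, had 5 peaks of each kind, and all 5 of its m6A peaks overlapped a YTHDF2 peak. The YTHDF2 peak with the highest fold enrichment, 4.10, lay in the 3′ UTR at 170108765 to 170110253 on chromosome 2 and overlapped none of them. Zfp318, which controls the choice between IgM and IgD transcripts in B cells, had 7 m6A peaks, 4 of which overlapped a YTHDF2 peak, and all 4 of its YTHDF2 summits were coding.

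Zfp106 had 10 YTHDF2 peaks and 5 m6A peaks, 3 of which overlapped. Its YTHDF2 peak with the highest fold enrichment, 4.91, lay in an intron of the listed transcript at 120528388 to 120528774. Another 2 lay in the 3′ UTR, where the gene had no m6A peak. The peak with the highest −log10 q, 35.4 against 23.3 for the intronic peak, was among these 2, with a fold enrichment of 4.24. Zfp646, Zfp62 and Zfp719 carried 5 m6A peaks each and no YTHDF2 peak. Zfp516, a factor of brown fat genes, had 6 YTHDF2 peaks and 4 m6A peaks, at a log2 fold change of 0.03 ± 0.13 (SE).

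The highest fold enrichments among members were those of Zfp420 at 8.35, Zfp282 at 6.68, Zfp236 at 6.07, Zfp346, which binds double-stranded RNA, at 6.03, Zfp553 at 5.92, Zfp629 at 5.85, Zfp141 at 5.77 and Zfp407 at 5.59. None of these 8 genes was called between the genotypes, with log2 fold changes from −0.37 to 0.07. As 2.32% of all tested genes were called, nothing is read from this absence in so few genes. In Zfp282, Zfp346, Zfp553, Zfp629 and Zfp141 the summit of highest fold enrichment was in the 3′ UTR, in Zfp236 and Zfp407 in coding sequence. The peak of Zfp346 is also listed under another gene. The 3′ UTR peaks of Zfp282 (chromosome 6, 47904923 to 47905836) and Zfp629 (the second, chromosome 7, 127608068 to 127610991) each covered the gene's m6A peak. Zfp420 differed from these: all 8 of its summits lay in introns, spread from 29860461 to 29867025 on chromosome 7, while its 1 m6A peak lay downstream at 29875517 to 29875666, at a mean count of 127.

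The count of 14 peaks in Zfp652, the highest of any member, depends on the transcript named by the list. Of its summits, 10 lie past the RefSeq end of the gene (chromosome 11, 95749067 to 95764715), and 5 of those are also listed under the neighbours Phospho1 and Abi3. The other 4, inside the gene, had fold enrichments of 3.26, 2.02, 2.94 and 4.01, and the last 2 of these fell in an intron of the listed transcript. No other member had a summit outside its RefSeq gene.

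The members were gathered on a few chromosomes. Chromosome 7 held 49 of 213 (23.0%, against 7.50% of all genes of at least 100), chromosome 17 held 31 (14.6%, against 5.08%) and chromosome 13 held 17 (7.98%, against 3.74%). Joining neighbours less than 500 kb apart gave 8 groups of at least 5 members, with 73 genes in all. An m6A peak was found in 68.5% of these 73 and in 57.1% of the other 140 members. A YTHDF2 peak was found in 43.8% of the grouped and in 59.3% of the other members. The median mean counts were 306 in the grouped and 405 in the other members, so ranges of expression were compared. From 100 to 200, 34.6% of 26 grouped and 39.3% of 28 other members had m6A, and 11 and 7 of them had a YTHDF2 peak. From 200 to 500, 83.8% of 37 grouped and 38.9% of 54 other members had m6A, and 35.1% and 50.0% had a YTHDF2 peak. From 500 to 1000, all 8 grouped and 80.0% of 35 other members had m6A, and 87.5% and 82.9% had a YTHDF2 peak. The order thus changed between ranges for both kinds of peak. How reads that match several copies were placed is unknown.

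The largest group, 18 genes from Zfp160 to Zfp40 on chromosome 17 (21008941 to 23193284), had an m6A peak in 13 genes and a YTHDF2 peak in 3. Zfp53, Zfp52, Zfp945 and Zfp40 carried 3 m6A peaks each, and of these Zfp945 had a YTHDF2 peak. The other 2 genes with a YTHDF2 peak were Zfp160 and Zfp760. The log2 fold changes of this group had a median of 0.13 and 15 of 18 were above 0, also after centring, where the median was 0.09. It was the group with the highest median, and the others had medians from −0.04 to 0.06 (−0.08 to 0.02 after centring). After centring, 5 of 10, 5 of 9, 4 of 9, 2 of 8, 3 of 8, 1 of 6 and 1 of 5 genes of the others were above 0. Over all genes of at least 100, 49.2% were above 0 (40.1% after centring). None of the 18 passed the test, while 2.32% of all tested genes did, and Zfp758 was highest at 0.29 ± 0.20 (SE). On chromosome 6 the order was the other way: of 8 genes from Zfp398 to Zfp775, 4 carried m6A and 7 a YTHDF2 peak. On chromosome 13, 10 genes from Zfp759 to Zfp65 had 5 and 1. On chromosome 7 all 8 genes from Zfp84 to Zfp146 carried m6A and 5 a YTHDF2 peak. The median mean count of each of these groups lay between 200 and 500. Over all genes of that range 35.7% carried m6A and 53.4% a YTHDF2 peak, the same order as on chromosome 6.

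**Figure D5:**
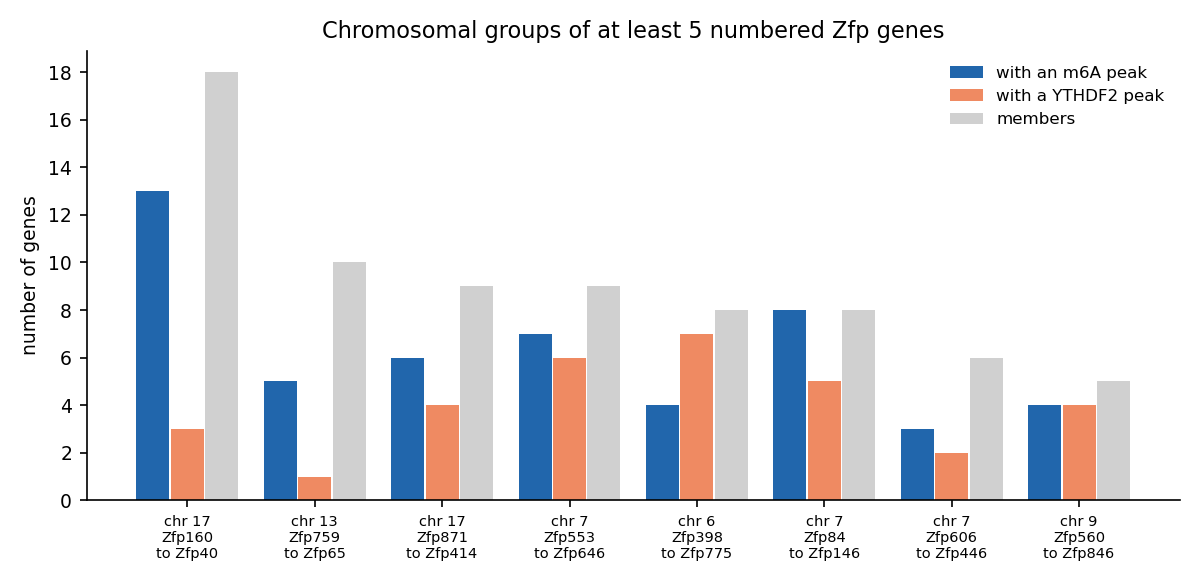
Number of genes with an m6A peak (blue), with a YTHDF2 peak (orange) and in all (grey) in each of the 8 chromosomal groups of at least 5 numbered Zfp genes. In the group from Zfp160 to Zfp40 the bars stand at 13, 3 and 18, and in the group from Zfp398 to Zfp775 at 4, 7 and 8.

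Of the 26 members numbered Zfp930 or higher, 42.3% had an m6A peak, against 63.6% of the 187 others. For YTHDF2 peaks the shares were 23.1%, against 58.3%. Their median mean count was 251, against 358, and their highest 517, against 4614. The peak shares were not compared within ranges of expression here, so these gaps are not read as apart from expression level. The log2 fold changes of the 26 had a median of 0.08 with 20 of 26 above 0 (18 after centring). Over all genes of at least 100, 49.2% were above 0 (40.1% after centring). Zfp992 was the 1 that passed, while 2.32% of all tested genes did. The cut at Zfp930 was not among the planned results. Zfp942, Zfp943, Zfp944, Zfp945, Zfp946, Zfp948, Zfp983, Zfp994 and Zfp995 all lie in the chromosome 17 group from Zfp160 to Zfp40. The sets thus share many genes, and their values are not separate observations.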

How the data were processed

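The files held the authors' comparison of the m6A input libraries and 2 WT peak lists. Members and lists were chosen with earlier results of these data known. The expression table's column names are those of DESeq2 results, per the file headers. Its mean normalized count is a signal deposited by the authors, an average of counts divided by size factors. The log2 fold change, its standard error, the Wald score, the p-value and the adjusted p-value are as deposited by the authors. The m6A list, named for exomePeak2 per the labels, gives positions alone. The YTHDF2 list gives, as deposited, a fold enrichment ratio and −log10 p and q values per peak; its score column, also deposited, was not used. HISAT2, HOMER, ChIPseeker and mm10 are named in the submitters' processing notes without a role. The design foresaw counts per library, and with none in the files the authors' calls (adjusted p under 0.05) are described.

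Peak symbols were joined directly or through a single RefSeq synonym (GRCm38.p6). Of 45541 rows in the YTHDF2 list, 3234 repeats were dropped. A peak listed under several genes counted for each. Each summit took the first feature that held it, tried from 3′ UTR through coding exon and 5′ UTR to intron. An m6A peak was placed when within 1000 bp of its gene. Coordinates are 1-based. Named members were those called, the 5 highest and 5 lowest fold changes, the 5 highest mean counts, those with most peaks (5 for each list), the 8 highest fold enrichments, the 5 most abundant without peaks, and 2 on each side of the threshold of 100. Other members named were chosen after their values were seen. Python 3.11.15, pandas 2.3.3, numpy 2.4.6 and scipy 1.17.1 were used, and the adjustment and centring were tested on simulated data.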

Additional observations from a re-analysis of the deposited data

How the results depend on the processing

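The number of members called by the authors' test was 2 with p-values adjusted over every gene and with centring, 3 with a minimum mean count of 50 (Zfp462 added) and 1 with a minimum of 200, which leaves out Zfp992. The members' median log2 fold change was 0.03, and −0.01, 0.03 and 0.05 with centring and with minimums of 50 and 200. The share of members with an m6A peak, 61.0%, was 51.2% with a minimum of 50 and 69.2% with 200, and did not move with exact symbols or with placed peaks alone. The share with a YTHDF2 peak, 54.0%, was 45.7% and 61.0% with those minimums. With a fold enrichment of at least 3 it was 44.1% (all genes of at least 100: 44.3%). Shares over all genes were not compared at minimums of 50 and 200, so the difference from all genes is not known there. The members' share was between 50.2% and 54.5% with exact symbols, with a −log10 q of at least 5, by position, and (chosen after seeing the data, as was position) without peaks listed under another gene. Over all genes of at least 100 it was 64.0% with exact symbols and 66.1% with that −log10 q. Member m6A peaks overlapped by at least 50% in 26.2% (all genes of at least 100: 31.8%). With a −log10 q of at least 5 they overlapped by 1 bp in 30.8% (all genes of at least 100: 46.3%). Coding summits were 35.1% with a fold enrichment of at least 3 (all genes of at least 100: 32.8%). With the −log10 q limit they were 41.9% (all genes of at least 100: 35.2%). No paired analysis was possible because the files hold no value per library, and for the same reason no library could be left out. Depth behind each peak is unknown.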

Other observations

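Below the level used here, Zfp462, with a mean count of 77.9, stood at 1.66 ± 0.39 (log2 fold change, SE; adjusted p 0.00245) by the authors' deposited table. It was the 1 called among the 46 tested numbered Zfp genes with a mean count under 100, while 2.32% of all tested genes were called. It had no peak in either list. Zfp970, at a mean count of 84.1 and a log2 fold change of −0.10 ± 0.36, had 1 peak in each list. Zfp36, left out by the rule, was at 0.13 ± 0.13 with a mean count of 8370, 3 m6A peaks and 1 YTHDF2 peak. All 3 were picked with their values in view.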
